A study of Mus musculus with 16 samples.

Results

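A set of 10 genes of glucose transport and glycolysis was followed across a hairpin against Sirt1 and retinoic acid (RA) in E14, a mouse embryonic stem cell line: Slc2a1, Slc2a3, Hk1, Hk2, Pfkl, Pfkp, Aldoa, Pgk1, Eno1 and Ldha. They were chosen by name, as all probes that carry these names in the scanner files, which gave 22 of the 41174 probes on the array, and 10 of the 18282 genes tested. RNA was hybridised to 16 one-colour arrays in 4 groups: sh-SIRT1 cells with 20 nM RA (n = 6), sh-Control cells with 20 nM RA (n = 4), sh-SIRT1 cells with ethanol vehicle (n = 3) and sh-Control cells with ethanol vehicle (n = 3), each for 2 days. Both lines carried a stably expressed hairpin from a lentiviral vector, and both were kept in serum medium with the inhibitory factor that holds stem cells undifferentiated, so RA acted in its presence in every treated sample. The labels name neither the isomer of RA nor whether a line was 1 clone. The series title asks whether loss of SIRT1, an NAD-dependent deacetylase, strengthens the differentiation that RA induces. The design text mentions duplicates without saying which arrays they are, so the p-values rest on array-to-array spread that may in part be technical.

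In glycolysis, glucose enters the cell through carriers of the GLUT family, is trapped by phosphorylation, is committed by phosphofructokinase and is split and oxidised to pyruvate, which lactate dehydrogenase can turn into lactate. Mouse embryonic stem cells are known for a high rate of glycolysis, and many of its genes are known targets of the hypoxia-inducible factors and of Myc proteins. SIRT1 is known to deacetylate several transcription factors that act on metabolic genes.

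Each value is a log2 intensity relative to the 75th percentile of its own array, so 0 stands for the intensity at that percentile. Probes differ in how they hybridise, so values are compared between groups for the same probe and not between genes. Of the 22 probes, 20 passed the filter (every array of 1 group or more well above background), and each of the 10 genes was represented by its brightest probe, which was well above background on 16 of 16 arrays and saturated on none. The probes that did not pass, 1 each for Slc2a3 and Hk1, were well above background on 0 arrays. On the arrays, 60.1 to 68.0% of probes were well above background. Sirt1 itself lay between 0.92 and 1.59 in sh-SIRT1 RA cells against 3.28 to 3.48 in sh-Control RA cells, and between 1.83 and 1.89 in sh-SIRT1 vehicle cells against 3.53 to 3.85 in sh-Control vehicle cells, so the hairpin groups did not overlap. All 10 embryonic stem cell markers examined were well above background on every array, but their levels changed with RA. In sh-Control cells Pou5f1, Sox2, Esrrb and Utf1 differed by -1.29 to -0.54, and Nanog and Tbx3 by 1.30 and 1.14 (limma adjusted p under 0.05). Klf4, Zfp42, Tdgf1 and Dppa5a did not pass there. In sh-SIRT1 cells the same genes moved the same way, and Tdgf1 (-1.14) and Zfp42 (-0.76) also fell.

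Some arrays stood apart from their labels or their groups. The Y-linked gene Ddx3y was at 0.23 on sh-Control RA array 1 but not well above background on sh-Control RA arrays 2, 3 and 4 (-6.91, -8.01 and -8.12), while it was between 0.33 and 1.60 on the other arrays of the series. The summed linear level of 4 Y-linked genes was 0.153, 0.188 and 0.193 on these 3 arrays and 5.14 on sh-Control RA array 1. It was 4.27 to 5.93 in sh-SIRT1 RA, 5.59 to 6.1 in sh-SIRT1 vehicle and 3.31 to 6.57 in sh-Control vehicle cells. These 3 libraries thus differ from all the others in Y-linked signal, which neither the hairpin nor RA is labelled to target. They are called sh-Control here as their labels say. The RA effect in sh-Control cells and the difference between the lines under RA rest largely on these 3 arrays. The part of the Y-linked difference in both comparisons was not tested. The RA arrays numbered 1 of both lines were high in several glycolysis genes, and the text says where a call or a value turns on them. Over all genes they were not the only ones apart. Among sh-SIRT1 RA arrays the SD of the log2 differences between 2 arrays was 0.324 between arrays 1 and 2 and 0.528 to 0.616 between either of them and arrays 3 to 6, which differed among themselves by 0.269 to 0.363. Among sh-Control RA arrays it was 0.214 between arrays 3 and 4 and 0.633 to 0.736 in every other pair. In each vehicle group array 1 differed from the others by 0.517 to 0.556, and arrays 2 and 3 from each other by 0.293 in sh-SIRT1 and 0.321 in sh-Control cells. Leaving out RA array 2 of either line changed no call of the 10 genes. Within treatments, arrays of equal number in both lines deviated together (correlations of 0.363 to 0.541), so a fit with the replicate number as a block is given where it changes a call.

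With RA, the carriers Slc2a1 and Slc2a3 rose and the enzymes Hk2 and Eno1 fell, in both lines. In sh-SIRT1 cells, 5 of the 10 genes passed the test against vehicle (limma adjusted p under 0.05 over all genes), where 58.2% of all genes did. Slc2a1, Slc2a3 and Hk1 rose (23% of all genes rose) and Hk2 and Eno1 fell (35.3% of all genes fell). In sh-Control cells, 6 of the 10 passed, where 46.8% of all genes did. Slc2a1 and Slc2a3 rose (19.7% of all genes rose), and Hk2, Aldoa, Eno1 and Ldha fell (27.2% of all genes fell). These shares of the 10 genes lie near the share of all genes. The median log2 difference of the 10 genes was -0.28 in sh-SIRT1 cells and -0.48 in sh-Control cells, beside -0.13 and -0.14 over all genes. The arrays of RA and vehicle did not overlap for 5 of the 10 genes in sh-SIRT1 cells, against 57.7% of all genes, and for 7 of the 10 in sh-Control cells, against 47.6% of all genes. In bulk RNA, fewer cells that express a gene and less RNA per cell cannot be told apart.

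**Figure D1:**
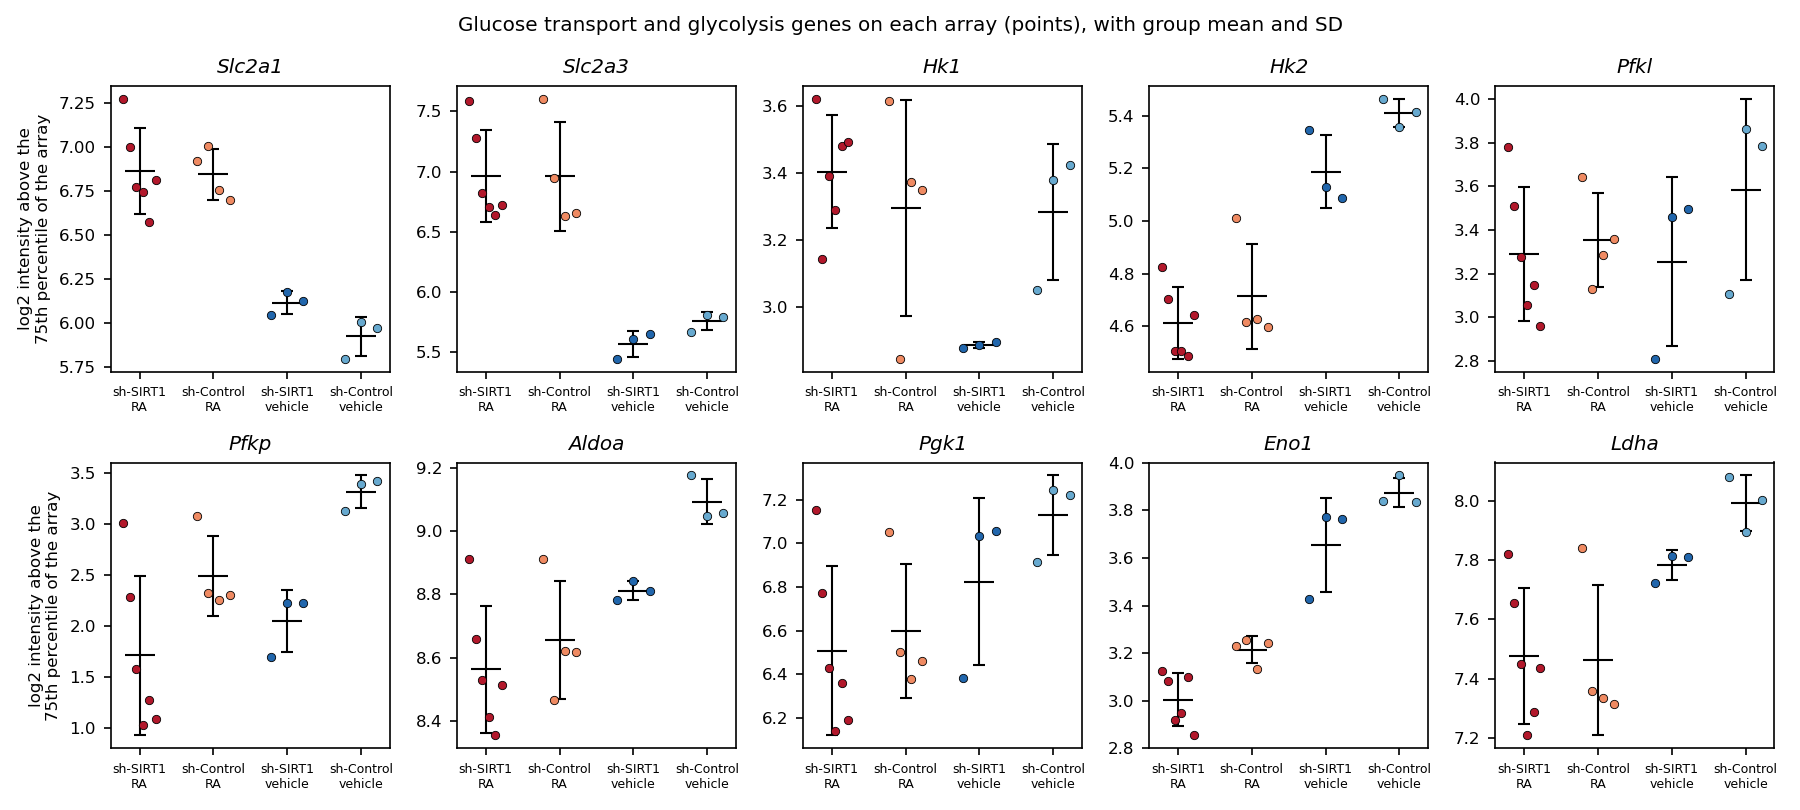
Each panel plots 1 gene, with a point per array, the group mean and the standard deviation (SD), on the log2 scale above the 75th percentile of the array. Slc2a1 and Slc2a3 lie higher in both RA groups than in both vehicle groups with no overlap, Eno1 lies lower in both, and Pfkp of sh-Control vehicle lies above every other array.

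Slc2a1, the widely expressed glucose carrier GLUT1 (probe at chr4:118513698-118513757, build mm7), had a lowest, median and highest value of 6.57, 6.80 and 7.28 in sh-SIRT1 RA cells, against 6.05, 6.18 and 6.12 in the 3 sh-SIRT1 vehicle arrays. In sh-Control RA cells it was at 6.92, 7.01, 6.76 and 6.70, against 5.80, 6.00 and 5.97 in sh-Control vehicle cells. Every RA array lay above every vehicle array of either line. RA raised Slc2a1 by 0.75 ± 0.13 log2 units (SE) in sh-SIRT1 cells, 1.68-fold (limma adjusted p = 0.000200), and by 0.92 ± 0.14 in sh-Control cells, 1.90-fold (adjusted p = 0.000124).

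Slc2a3, the high-affinity glucose carrier GLUT3 of neurons and early embryos (probe at chr6:122764878-122764937), ranged over 6.64, 6.77 and 7.58 (lowest, median, highest) in sh-SIRT1 RA cells against 5.45, 5.61 and 5.65 in sh-SIRT1 vehicle cells. In sh-Control RA cells it was at 7.60, 6.95, 6.63 and 6.66, against 5.67, 5.81 and 5.79 in sh-Control vehicle cells. The groups did not overlap, and the RA arrays numbered 1 were the highest in each line. It rose by 1.39 ± 0.23 in sh-SIRT1 cells (2.62-fold, limma adjusted p = 0.000126) and by 1.20 ± 0.25 in sh-Control cells (2.30-fold, adjusted p = 0.00123). The rise was 1.27 in sh-SIRT1 cells and 0.99 in sh-Control cells without both RA arrays numbered 1, and both passed. A second probe of Slc2a3 was 0.53 higher with RA in sh-SIRT1 cells and 0.54 higher in sh-Control cells, and passed the test in neither (adjusted p over all probes of 0.157 and 0.198). The RA calls of Slc2a1, Slc2a3 and Eno1 held in both lines under 30 of 30 alternative settings.

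The hexokinases phosphorylate glucose on entry. Hk2, the inducible form, is known as a hypoxia target (probe at chr6:82750613-82750672). It had 4.49, 4.58 and 4.83 (lowest, median, highest) in sh-SIRT1 RA cells, against 5.35, 5.13 and 5.09 in sh-SIRT1 vehicle cells. In sh-Control RA cells it stood at 5.01, 4.62, 4.63 and 4.60, against 5.46, 5.36 and 5.41 in sh-Control vehicle cells. RA lowered it with no overlap in either line, by a log2 difference of -0.57 ± 0.11 in sh-SIRT1 cells (1.49-fold, limma adjusted p = 0.000442) and -0.70 ± 0.12 in sh-Control cells (1.62-fold, adjusted p = 0.000300). The differences of Hk2 were -0.62 in sh-SIRT1 cells and -0.80 in sh-Control cells without both RA arrays numbered 1, and both passed. With sh-Control RA array 1 as the only array of its group, the difference in sh-Control cells was -0.40 and did not pass (adjusted p = 0.0615). There, and wherever this setting is named, the lone array is assumed to vary like the arrays of the other groups. With quantile normalization the difference in sh-SIRT1 cells was -0.20 (adjusted p = 0.0879).

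Hk1, the constitutive hexokinase bound to mitochondria (probe at chr10:61787906-61787965), ranged over 3.14, 3.44 and 3.62 in sh-SIRT1 RA cells, against 2.88, 2.89 and 2.90 in sh-SIRT1 vehicle cells. In sh-Control RA cells it was at 3.61, 2.85, 3.37 and 3.35, against 3.05, 3.38 and 3.42 in sh-Control vehicle cells. The sh-SIRT1 groups did not overlap, while the sh-Control groups did. RA raised Hk1 in sh-SIRT1 cells by 0.52 ± 0.15 (1.43-fold, limma adjusted p = 0.00795). The difference in sh-Control cells was 0.01 ± 0.16 (adjusted p = 0.959). The difference between both responses was 0.51 ± 0.22 and did not pass the test (adjusted p = 0.209), where 3.59% of all genes passed (1.71% higher and 1.88% lower in sh-SIRT1 cells) and 0 of the 10 did. The rise in sh-SIRT1 cells did not pass with normexp background correction (0.43, adjusted p = 0.0599) or with scaling to the median of the array (0.23, adjusted p = 0.12).

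Hk1 had 5 probes that passed the filter. All 5 were higher with RA in sh-SIRT1 cells, by 0.27 to 0.78, and 4 of them passed the test over all probes. In sh-Control cells the same 5 probes differed by -0.25 to 0.04. The probe A_51_P249024 had -1.20, -1.05 and -0.84 (lowest, median, highest) in sh-SIRT1 RA cells and -1.83, -1.87 and -1.73 in sh-SIRT1 vehicle cells. The same probe had -1.09, -1.74, -1.27 and -1.20 in sh-Control RA cells and -1.46, -1.18 and -1.09 in sh-Control vehicle cells. For this probe the difference between both responses was 0.86 (limma adjusted p = 0.0285 over all probes) and the hairpin difference in vehicle was -0.57 (adjusted p = 0.0371). The other 4 probes had differences between both responses of 0.51 to 0.79 and none passed.

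The phosphofructokinases catalyse the committed step. Pfkl, the liver-type subunit (probe at chr10:77642785-77642844), had 2.96, 3.21 and 3.78 (lowest, median, highest) in sh-SIRT1 RA cells against 2.81, 3.46 and 3.49 in sh-SIRT1 vehicle cells. It had 3.64, 3.13, 3.29 and 3.36 in sh-Control RA cells against 3.11, 3.86 and 3.78 in sh-Control vehicle cells. All groups overlapped, with RA differences of 0.03 ± 0.22 in sh-SIRT1 cells (limma adjusted p = 0.904) and -0.23 ± 0.23 in sh-Control cells (adjusted p = 0.438).

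Pfkp, the platelet-type subunit (probe between 6475782 and 6477936 on chromosome 13), had the widest range of group means of the 10 genes. It had 1.03, 1.43 and 3.01 (lowest, median, highest) in sh-SIRT1 RA cells and 1.70, 2.23 and 2.22 in sh-SIRT1 vehicle cells. It had 3.08, 2.32, 2.25 and 2.31 in sh-Control RA cells and 3.13, 3.40 and 3.42 in sh-Control vehicle cells. In vehicle all sh-SIRT1 arrays lay below all sh-Control arrays, whereas under RA the sh-SIRT1 arrays 1 and 2 (3.01 and 2.28) lay within the range of the sh-Control arrays. The RA differences were -0.34 ± 0.37 in sh-SIRT1 cells (limma adjusted p = 0.45) and -0.83 ± 0.40 in sh-Control cells (adjusted p = 0.104). Without both RA arrays numbered 1, a setting chosen after the data were seen, they were -0.60 (adjusted p = 0.0497) and -1.02 (adjusted p = 0.00887). Without sh-SIRT1 RA array 1 alone, the adjusted p in sh-Control cells was 0.0295 at an unchanged difference. A second probe of Pfkp, A_52_P223083, had -0.73, -0.21 and 1.26 (lowest, median, highest) in sh-SIRT1 RA cells and 0.79, 1.64 and 1.59 in sh-SIRT1 vehicle cells. It had 1.18, 0.77, 0.94 and 0.99 in sh-Control RA cells and 2.23, 2.37 and 2.39 in sh-Control vehicle cells. This probe fell with RA by 1.39 in sh-SIRT1 cells (adjusted p over all probes of 0.00309) and by 1.37 in sh-Control cells (adjusted p = 0.00834), although its sh-SIRT1 groups overlapped. Between the lines it differed by -1.02 under RA (adjusted p = 0.0328) and by -0.99 in vehicle (adjusted p = 0.144). Another probe of Pfkp differed with RA by -0.07 in sh-SIRT1 cells and by -0.21 in sh-Control cells. Between the lines that probe differed by -0.26 under RA and by -0.40 in vehicle, and it passed in none of these comparisons.

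**Figure D2:**
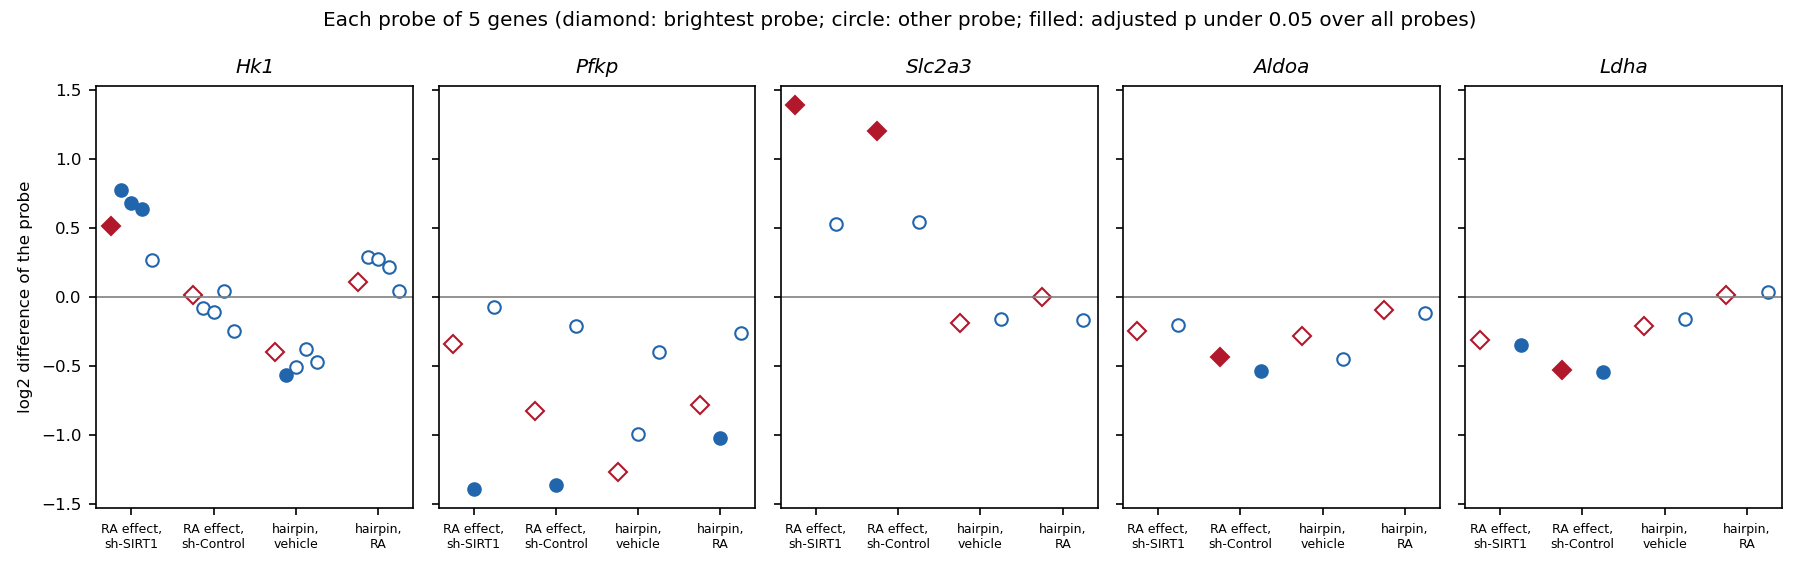
Each symbol is 1 probe that passed the filter, placed by its log2 difference in 4 comparisons: the RA effect in sh-SIRT1 and in sh-Control cells, and the hairpin effect in vehicle and under RA. The probes of Hk1 lie together above 0 for RA in sh-SIRT1 cells and around 0 in sh-Control cells, while the probes of Pfkp spread between -1.39 and -0.07.

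Among the later enzymes, by their brightest probes, Eno1 passed in both lines, Aldoa and Ldha passed in sh-Control cells only, and Pgk1 passed in neither. The difference between both responses did not pass for Aldoa (0.19 ± 0.17, limma adjusted p = 0.588) or Ldha (0.22 ± 0.21, adjusted p = 0.592). Aldoa, the aldolase that splits fructose bisphosphate (probe at chr7:122891843-122891902), had 8.36, 8.52 and 8.91 (lowest, median, highest) in sh-SIRT1 RA cells and 8.78, 8.84 and 8.81 in sh-SIRT1 vehicle cells. It had 8.91, 8.47, 8.62 and 8.62 in sh-Control RA cells and 9.18, 9.05 and 9.06 in sh-Control vehicle cells. The sh-SIRT1 groups overlapped through RA array 1. The difference was -0.25 ± 0.12 in sh-SIRT1 cells (limma adjusted p = 0.0859) and -0.44 ± 0.13 in sh-Control cells (1.35-fold, adjusted p = 0.0121). The difference in sh-Control cells was -0.52 without both RA arrays numbered 1 (adjusted p = 0.00049). Without sh-SIRT1 RA array 1 the difference in sh-SIRT1 cells was -0.32 and passed (adjusted p = 0.0147). The call in sh-Control cells ended with normexp correction (-0.49, adjusted p = 0.0958), with quantile normalization (-0.08, adjusted p = 0.486) and with array 1 as the only sh-Control RA array (-0.18, adjusted p = 0.462).

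Pgk1, phosphoglycerate kinase, which makes the first ATP of the pathway (probe at chrX:101530787-101530846), had 6.14, 6.40 and 7.15 (lowest, median, highest) in sh-SIRT1 RA cells and 6.38, 7.04 and 7.06 in sh-SIRT1 vehicle cells. It had 7.05, 6.50, 6.38 and 6.46 in sh-Control RA cells and 6.92, 7.25 and 7.22 in sh-Control vehicle cells. The groups overlapped in both lines. The differences were -0.32 ± 0.23 in sh-SIRT1 cells (limma adjusted p = 0.251) and -0.53 ± 0.25 in sh-Control cells (adjusted p = 0.092). Without both RA arrays numbered 1 they were -0.45 (adjusted p = 0.041) and -0.68 (adjusted p = 0.0123). Without sh-Control RA array 1 alone, the adjusted p in sh-Control cells was 0.0364.

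Eno1, enolase 1 (probe between 149233567 and 149233792 on chromosome 4), had 2.85, 3.01 and 3.13 (lowest, median, highest) in sh-SIRT1 RA cells against 3.43, 3.77 and 3.76 in sh-SIRT1 vehicle cells. In sh-Control cells it had 3.23, 3.26, 3.13 and 3.24 with RA against 3.84, 3.95 and 3.84 with vehicle. RA and vehicle did not overlap in either line. It fell by 0.65 ± 0.09 log2 units in sh-SIRT1 cells (1.57-fold, limma adjusted p = 3.48e-05) and by 0.66 ± 0.10 in sh-Control cells (1.58-fold, adjusted p = 0.000112). The difference between both responses was 0.01 ± 0.13.

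Ldha, the muscle-type subunit of lactate dehydrogenase (probe at chr7:43031720-43031779), had 7.21, 7.44 and 7.82 (lowest, median, highest) in sh-SIRT1 RA cells and 7.72, 7.82 and 7.81 in sh-SIRT1 vehicle cells. It had 7.84, 7.36, 7.34 and 7.32 in sh-Control RA cells and 8.08, 7.90 and 8.003 in sh-Control vehicle cells. The sh-SIRT1 groups overlapped through RA array 1 and the sh-Control groups did not overlap. The difference was -0.31 ± 0.14 in sh-SIRT1 cells (limma adjusted p = 0.0736) and -0.53 ± 0.15 in sh-Control cells (1.45-fold, adjusted p = 0.0107). Without both RA arrays numbered 1, the difference in sh-SIRT1 cells was -0.38 (adjusted p = 0.00402). Its adjusted p was 0.0228 without sh-SIRT1 RA array 1 alone and 0.0337 without sh-Control RA array 1 alone. The call in sh-Control cells ended with quantile normalization (-0.21, adjusted p = 0.161) and with array 1 as the only sh-Control RA array (-0.15, adjusted p = 0.59). A second probe of Ldha differed by -0.35 in sh-SIRT1 cells (adjusted p over all probes of 0.0372) and -0.54 in sh-Control cells (adjusted p = 0.00698).

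**Figure D3:**
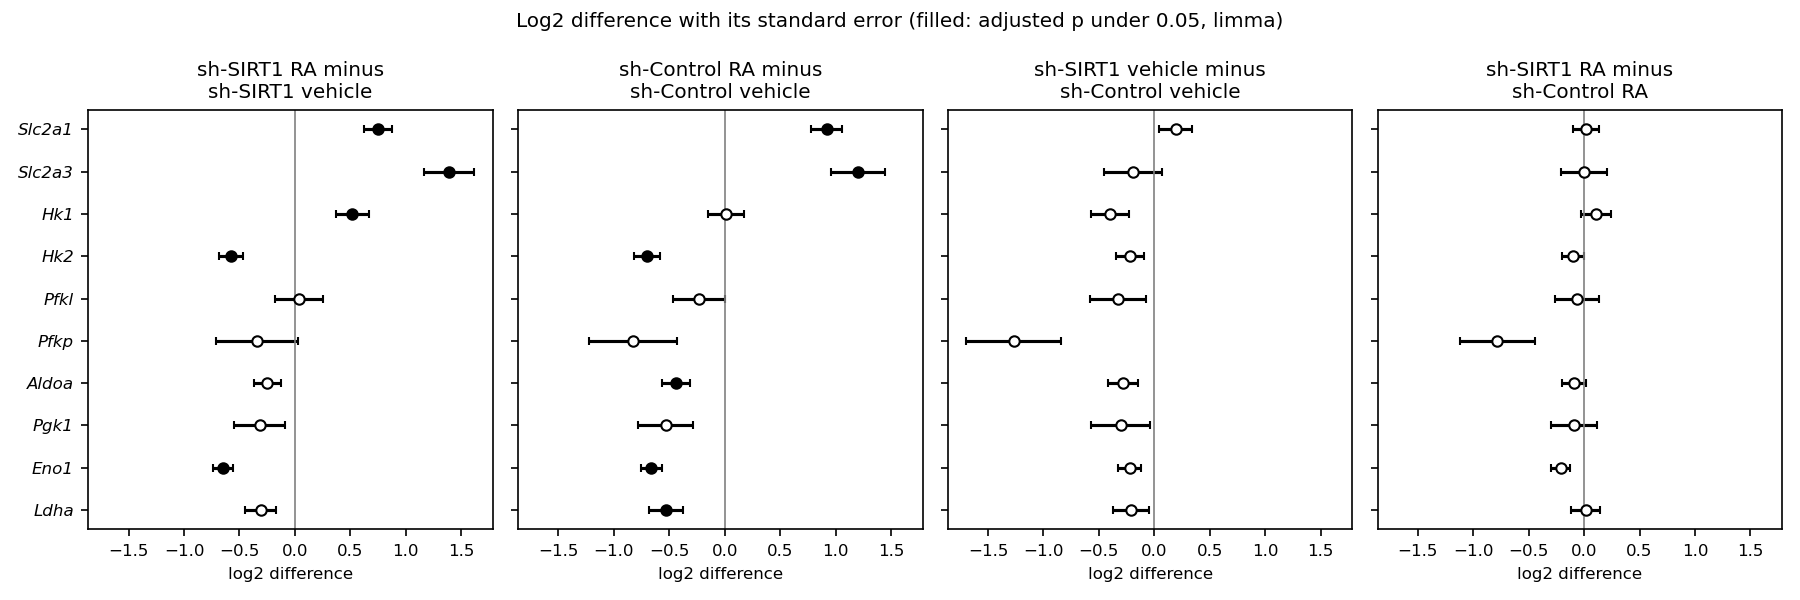
Each panel gives the log2 difference of the 10 genes in 1 comparison, as a point with its standard error, filled where the adjusted p was under 0.05. Slc2a3 lies at 1.39 and 1.20 in the RA panels, and in both hairpin panels every point is open, with Pfkp farthest from 0 at -1.27 and -0.78.

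Between the lines, by their brightest probes, 0 of the 10 genes passed the test in vehicle, where 8.62% of all genes did (4.41% higher and 4.21% lower in sh-SIRT1 cells). Under RA 0 of the 10 passed, where 20.3% of all genes did (8.59% higher and 11.7% lower). In vehicle, 9 of the 10 differences (sh-SIRT1 minus sh-Control) were below 0, from -1.27 for Pfkp to 0.19 for Slc2a1, and the arrays of the lines did not overlap for 8 of the 10, against 36% of all genes. The median difference of the 10 genes was -0.25 in vehicle and -0.08 under RA, beside -0.01 and -0.04 over all genes. Under RA the arrays did not overlap for 1 of the 10, against 15.4% of all genes. This was Eno1, at -0.21 ± 0.08 (limma adjusted p = 0.0907, and 0.0491 without sh-SIRT1 vehicle array 1, which enters through the shared spread). Pfkp differed by -1.27 ± 0.43 in vehicle (adjusted p = 0.082) and by -0.78 ± 0.34 under RA (adjusted p = 0.12). With the replicate number as a block, Pfkp in vehicle passed at -1.27 ± 0.23 (adjusted p = 0.0132), as did Hk1 at -0.40 ± 0.10 (adjusted p = 0.0389). Under RA the block left Pfkp at -0.52 ± 0.20 (adjusted p = 0.0965). In the block fit, for every gene, the difference between the lines under RA rests on arrays 1 to 4. The sh-SIRT1 RA arrays 5 and 6 have no sh-Control RA array of equal number. Without sh-SIRT1 RA array 1 the Pfkp difference under RA was -1.04 (adjusted p = 0.0109), and in vehicle its adjusted p was 0.0213.

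Slides of 4 arrays held samples of both lines, which allowed the hairpin difference to be read within a slide, with no test. For Pfkp it was -0.90 and -1.18 on the 2 slides that held both vehicle groups, and -1.22, -1.04 and -1.04 on the 3 slides that held both RA groups. On every such slide Pfkp was lower in sh-SIRT1 cells. The last of these values averages 2 unlike sh-SIRT1 RA arrays, array 1 at 3.01 and array 6 at 1.09, against sh-Control RA array 1 at 3.08. For Slc2a3 the corresponding values were -0.06 and -0.16 in vehicle, and 0.07, -0.16 and -0.45 under RA, with no common sign. The RA effect on Slc2a3 within slides was 1.10, 1.20 and 1.40 in sh-SIRT1 cells and 0.96 and 1.81 in sh-Control cells.

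Summed levels of markers of other cell types differed between some groups and overlapped between others. The summed linear level of 7 fibroblast markers, relative to the 75th percentile, was 7.29 to 12.9 in sh-SIRT1 RA cells, 6.52 to 17.6 in sh-Control RA cells, 2.36 to 2.71 in sh-SIRT1 vehicle cells and 7.80 to 8.24 in sh-Control vehicle cells, and 4 to 7 of the 7 were well above background. Thy1, one of them, differed between the lines in vehicle by -2.48 (limma adjusted p = 0.0149). The sum of 10 endoderm markers was 22.5 to 37.0 in sh-SIRT1 RA cells, 14 to 91.5 in sh-Control RA cells, 9.29 to 11.4 in sh-SIRT1 vehicle cells and 12.2 to 17.9 in sh-Control vehicle cells, with the highest value on sh-Control RA array 1. Taken singly, Gata6, Sox17, Sox7, Foxa2, Dab2, Col4a1 and Col4a2 rose with RA in sh-Control cells, by 2.40 to 4.72 (limma adjusted p under 0.05). Gata4, Lama1 and Sparc did not pass there. In sh-SIRT1 cells the same genes and Lama1 rose, by 1.62 to 5.41, and Gata4 and Sparc did not pass. The sum of 7 trophoblast markers was 5.57 to 11.8 in sh-SIRT1 RA cells, 7.84 to 10.9 in sh-Control RA cells, 0.945 to 2.96 in sh-SIRT1 vehicle cells and 1.46 to 5.39 in sh-Control vehicle cells. The sum of 5 neuroectoderm markers was 3.33 to 5.10 in sh-SIRT1 RA cells, 1.60 to 2.84 in sh-Control RA cells, 1.28 to 1.72 in sh-SIRT1 vehicle cells and 1.35 to 1.51 in sh-Control vehicle cells. The part of these markers in the results on glycolysis genes was not tested.

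Paralogs were compared as a ratio of probe intensities on the same array, which needs no scaling between arrays. The log2 ratio of Hk2 over Hk1 averaged 1.21 ± 0.19 (SD, n = 6) in sh-SIRT1 RA cells and 2.30 ± 0.15 (n = 3) in sh-SIRT1 vehicle cells, and 1.42 ± 0.25 (n = 4) in sh-Control RA cells and 2.13 ± 0.25 (n = 3) in sh-Control vehicle cells. RA shifted it by -1.09 in sh-SIRT1 cells and by -0.71 in sh-Control cells, with no overlap in either line. The exact two-sided permutation p was 0.0238 in sh-SIRT1 cells and 0.0571 in sh-Control cells, each the smallest these group sizes allow, and 0.114 in both after adjustment over the 12 ratio comparisons. The unequal change of the hexokinases did not pass the adjusted test, although the arrays separated.

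The ratio of Slc2a3 over Slc2a1 was higher with RA by 0.64 in sh-SIRT1 cells (exact permutation p = 0.0238, adjusted 0.114) and by 0.28 in sh-Control cells (exact p = 0.0571, adjusted 0.114). The arrays did not overlap, but in sh-Control cells the value rests on RA array 1 at 0.68, where the other RA arrays were at -0.06, -0.12 and -0.04 and the highest vehicle array at -0.13. Without that array the difference was 0.09. The ratio of Pfkp over Pfkl was lower on average in sh-SIRT1 than in sh-Control cells, and the arrays of the lines overlapped under RA but not in vehicle. It averaged -1.58 ± 0.48 in sh-SIRT1 RA cells and -0.86 ± 0.23 in sh-Control RA cells, a difference of -0.72 (exact permutation p = 0.0476, adjusted 0.114). It averaged -1.21 ± 0.08 in sh-SIRT1 vehicle cells and -0.27 ± 0.26 in sh-Control vehicle cells, a difference of -0.94 (exact p = 0.1, the smallest that 3 against 3 arrays allow, adjusted 0.15). None of the 12 comparisons passed 0.05 after adjustment.

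**Figure D4:**
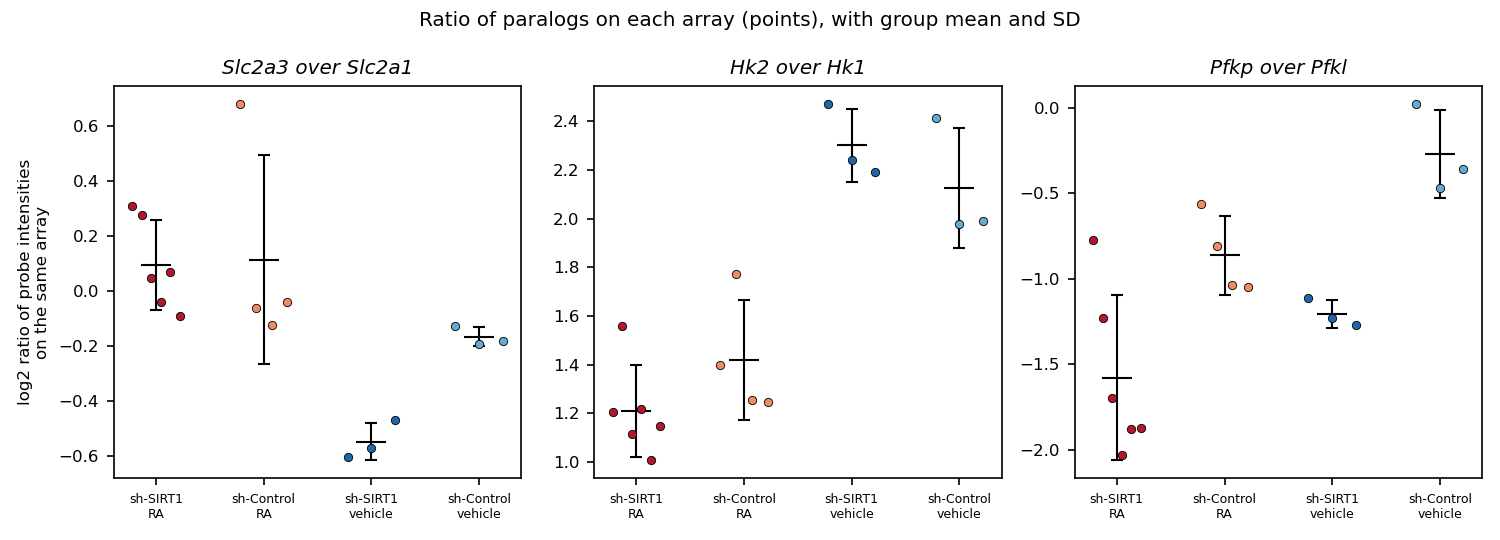
Each panel plots the log2 ratio of the probe intensities of 2 paralogs on the same array, with a point per array and the group mean and SD. The ratio of Hk2 over Hk1 lies at 1.01 to 1.56 in sh-SIRT1 RA cells against 2.19 to 2.47 in sh-SIRT1 vehicle cells, and at 1.25 to 1.77 in sh-Control RA cells against 1.98 to 2.41 in sh-Control vehicle cells.

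Promoter sequences are shown for 3 genes whose RNA moved or varied and for which RefSeq lists a single start: Slc2a1, which rose with RA, Hk2, which fell, and Pfkp, which differed most between the lines. Each is the 250 bases before the transcription start in GRCm38.p6, written 5′ to 3′ on the strand of the gene. Slc2a1 lies at chr4:119108495-119108744 on the plus strand, Hk2 at chr6:82774455-82774704 on the minus strand and Pfkp at chr13:6648772-6649021 on the minus strand. Capitals mark ACGTG and GCGTG, the core of the hypoxia response element, on either strand, where CACGT and CACGC are the same letters read on the opposite strand.
Slc2a1: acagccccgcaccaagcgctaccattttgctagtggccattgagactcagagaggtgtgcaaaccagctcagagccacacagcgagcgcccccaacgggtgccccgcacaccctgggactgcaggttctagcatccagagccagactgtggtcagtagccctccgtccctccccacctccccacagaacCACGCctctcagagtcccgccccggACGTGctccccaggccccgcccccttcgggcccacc
Hk2: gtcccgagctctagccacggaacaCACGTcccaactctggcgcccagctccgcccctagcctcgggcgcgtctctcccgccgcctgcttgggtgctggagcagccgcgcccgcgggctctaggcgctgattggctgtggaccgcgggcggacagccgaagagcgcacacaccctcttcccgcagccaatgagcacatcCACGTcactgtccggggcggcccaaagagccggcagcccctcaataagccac
Pfkp: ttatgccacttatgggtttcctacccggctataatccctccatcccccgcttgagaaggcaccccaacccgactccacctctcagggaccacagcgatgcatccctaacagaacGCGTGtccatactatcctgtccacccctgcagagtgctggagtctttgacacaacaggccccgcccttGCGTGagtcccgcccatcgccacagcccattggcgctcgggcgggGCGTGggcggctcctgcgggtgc
Slc2a1 held 1 ACGTG and 1 GCGTG, Hk2 held 2 ACGTG, and Pfkp held 3 GCGTG. The letters were found in a gene that rose with RA as well as in one that fell. Of the 9 genes with a promoter in the RefSeq table, 7 held ACGTG or GCGTG, as did 38.6% of 27025 promoters of the same length. Where a gene had several listed starts (Hk1, Aldoa, Eno1 and Ldha), the outermost was used. Ldha held 5 ACGTG, of which 4 lie in 2 copies of the E-box CACGTG (6.04% of promoters hold it), and none of the other 8 promoters held CACGTG. The nuclear receptor core motif AGGTCA was found in Eno1 alone of the 9, and in 13.8% of all promoters. These matches describe letters in a window and no binding was measured.

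Beyond the 10 genes, counts in related lists are read beside the shares of all genes, of which 23% rose and 35.3% fell in sh-SIRT1 cells and 19.7% rose and 27.2% fell in sh-Control cells. Of 22 other transport and glycolysis genes tested, 5 rose and 5 fell in sh-SIRT1 cells, and 5 rose and 7 fell in sh-Control cells. These counts lie near those shares. Among those that rose was Hkdc1, a hexokinase-like enzyme, at -0.88 in sh-SIRT1 RA cells against -5.01 in sh-SIRT1 vehicle cells (4.13 ± 0.60, limma adjusted p = 4.99e-05). It averaged -1.17 in sh-Control RA cells and -4.94 in sh-Control vehicle cells (3.77 ± 0.65, adjusted p = 0.000365). The probe was well above background on 2 of the 3 sh-SIRT1 vehicle arrays and on 3 of the 3 sh-Control vehicle arrays, so the low level is measured on part of the arrays only in sh-SIRT1 cells. Slc2a12, the carrier GLUT12, was not well above background in vehicle. It was at least 8.14-fold higher with RA in sh-SIRT1 cells (adjusted p = 1.32e-06) and at least 1.88-fold higher in sh-Control cells (adjusted p = 0.000727). Its probe passed the filter only through an RA group, so the p-values against vehicle are no independent support for a rise. Under RA, Slc2a12 was 1.83 ± 0.40 higher in sh-SIRT1 than in sh-Control cells (adjusted p = 0.00539). With normexp correction Slc2a12 passed neither against sh-Control vehicle (adjusted p = 0.171) nor between the lines under RA (adjusted p = 0.148), and with array 1 as the only sh-Control RA array the difference between the lines was 0.67 (adjusted p = 0.507). Ldhb, the heart-type lactate dehydrogenase subunit, averaged 5.36 in sh-Control RA cells and 6.74 in sh-Control vehicle cells (-1.37 ± 0.29, adjusted p = 0.00157).

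Of 15 genes of glycogen and gluconeogenesis tested, 10 rose and 0 fell in sh-SIRT1 cells, and 7 rose and 1 fell in sh-Control cells, and the median difference was 0.52 in sh-SIRT1 cells and 0.44 in sh-Control cells, beside -0.13 and -0.14 over all genes. Pygl, the liver glycogen phosphorylase, rose by 3.52 ± 0.41 in sh-SIRT1 cells (limma adjusted p = 6.63e-06) and by 2.81 ± 0.44 in sh-Control cells (adjusted p = 0.000174). Gyg, glycogenin, which primes glycogen, rose by 1.94 ± 0.23 in sh-SIRT1 cells and by 2.40 ± 0.25 in sh-Control cells (adjusted p = 7.80e-06 and 4.53e-06). Fbp2, a fructose bisphosphatase that runs against the phosphofructokinase step, rose by 2.49 ± 0.51 in sh-SIRT1 cells and by 1.80 ± 0.55 in sh-Control cells (adjusted p = 0.00084 and 0.0159). The call of Fbp2 in sh-Control cells ended in 3 of 30 alternatives, with the replicate block (adjusted p = 0.0528), with only the groups compared (0.0676) and without sh-Control vehicle array 1 (0.0664).

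Of 19 genes of lactate transport and control of glycolysis, 3 rose and 8 fell in sh-SIRT1 cells, and 2 rose and 5 fell in sh-Control cells, near the shares of all genes that fell. Mycn averaged 1.24 in sh-SIRT1 RA cells against 4.13 in sh-SIRT1 vehicle cells (-2.89 ± 0.24, limma adjusted p = 3.48e-07). It averaged 1.95 in sh-Control RA cells against 4.10 in sh-Control vehicle cells (-2.16 ± 0.26, adjusted p = 1.79e-05). Pdk1, a kinase that shuts pyruvate dehydrogenase, fell by 1.82 ± 0.41 in sh-SIRT1 cells and by 1.35 ± 0.44 in sh-Control cells (adjusted p = 0.00159 and 0.0214). Tigar, a phosphatase that lowers fructose 2,6-bisphosphate, was lower in sh-SIRT1 than in sh-Control cells by a log2 difference of -1.11 ± 0.15 under RA (adjusted p = 0.000314) and -0.74 ± 0.19 in vehicle (adjusted p = 0.0283). The vehicle call of Tigar ended in 9 of 30 alternatives, among them each that left out sh-SIRT1 vehicle array 1, 2 or 3 (adjusted p of 0.0525, 0.0798 and 0.0919) or sh-Control vehicle array 2 or 3 (0.0865 and 0.094). That of Pdk1 in sh-Control cells ended in 5 of 30, among them without sh-Control RA array 3 or 4 (adjusted p of 0.0547 and 0.0558) or sh-Control vehicle array 1 (0.0714).

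Of 8 genes of pyruvate entry into mitochondria, 1 rose and 5 fell in sh-SIRT1 cells, and 1 rose and 3 fell in sh-Control cells. Pdhb, a subunit of pyruvate dehydrogenase, fell by 1.06 ± 0.11 in sh-SIRT1 cells and by 0.73 ± 0.12 in sh-Control cells (limma adjusted p = 3.09e-06 and 0.000286). Of 7 genes of the pentose phosphate pathway, 1 rose and 3 fell in each line. G6pdx, its entry enzyme, fell by 0.97 ± 0.11 in sh-SIRT1 cells and by 0.94 ± 0.11 in sh-Control cells (adjusted p = 3.53e-06 and 1.82e-05). Of 24 hypoxia factors and their targets outside glycolysis, 10 rose and 3 fell in sh-SIRT1 cells, and 8 rose and 2 fell in sh-Control cells. P4ha2, a collagen prolyl hydroxylase, rose by 2.56 ± 0.30 in sh-SIRT1 cells and by 3.17 ± 0.32 in sh-Control cells (adjusted p = 6.84e-06 and 3.90e-06), and Vegfa, a vascular growth factor, rose by 1.52 ± 0.28 and 1.56 ± 0.30 in these lines (adjusted p = 0.00032 and 0.000783).

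**Figure D5:**
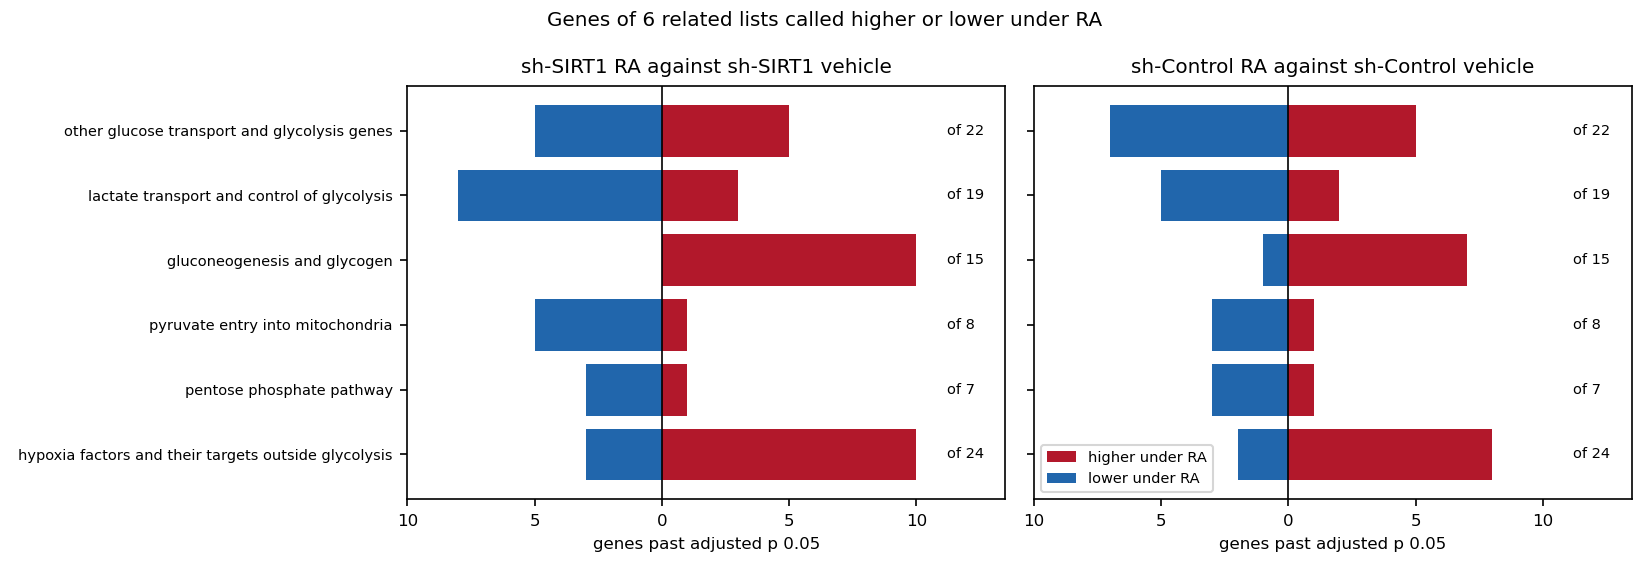
Bars give, for 6 related gene lists, how many genes rose to the right of 0 and fell to the left of 0 with RA at an adjusted p under 0.05, with the number tested at the right, for sh-SIRT1 cells and for sh-Control cells. The list of gluconeogenesis and glycogen genes has 10 higher and 0 lower of 15 in sh-SIRT1 cells, and 7 higher and 1 lower in sh-Control cells.

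Over the 16 arrays, the genes whose centred values lay closest to those of Slc2a3 were H2-D1, Pdia5 and Adamts7, at root mean square distances of 0.139, 0.157 and 0.162 log2 units. Those closest to Pfkp were Amdhd2, Klk8 and Ly6g6d, at 0.335, 0.346 and 0.348.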

How the data were processed

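Total RNA was labelled with Cy3 and hybridised to Agilent Whole Mouse Genome arrays. The software was Feature Extraction 9.5 per the submitters' processing notes and 9.5.3.1 per the file headers, which also record that spatial and multiplicative detrending were on and further background correction was off for the deposited processed intensity. Probe positions are in mm7. The deposited series matrix held the same intensity values. From these, outlier-marked spots (87 to 131 per array) were set to missing, log2 intensity minus the 75th percentile of the array was taken, and spots of a probe were averaged. A probe was kept where every array of 1 group or more was well above background (26375 of 41174), 17567 of them named through RefSeq accessions, and the brightest probe stood for a gene.

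The test was that of limma 3.58.1 (R 4.3.3), with a mean for each of the 4 groups, 12 residual degrees of freedom, two-sided, and Benjamini-Hochberg adjustment over 18282 genes. Paralog ratios were tested by exact permutation. Scripts were tested on simulated data. The number of arrays limits the precision. The genes and lists were chosen with earlier results of these data known. From related lists, up to 4 called genes with the largest difference per comparison could be named. Of likeness, the 2 members with the widest range of group means were used. Deviations of arrays of equal number correlated at 0.363 to 0.541 between the lines within a treatment, and at -0.211 to 0.219 between treatments within a line. Arrays of unequal number were not compared in this way. Slide and scan number coincided. The exon or UTR in which a probe lies, and Gapdh, were not analysed here.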

Additional observations from a re-analysis of the deposited data

Results flagged for a closer look

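Among the sh-Control RA arrays, array 1 lay farther from the other 3 than its group size makes usual in 3 genes. Hk2 was at 5.01 on array 1 against 4.60 to 4.63 on the others, Ldha at 7.84 against 7.32 to 7.36, and Pfkp at 3.08 against 2.25 to 2.32. Chance gives such a value in about 1 of 20 groups, and 20 groups of the 10 genes were examined.

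In 2 genes of the related lists the RA response differed between the lines by the test of the difference itself. The response of Arnt2, a partner of the hypoxia factors, was 1.23 ± 0.22 higher in sh-SIRT1 than in sh-Control cells (limma adjusted p = 0.0107), and that of Rpe, a pentose phosphate enzyme, differed by -0.91 ± 0.22 (adjusted p = 0.0348). The call of Arnt2 was lost in 2 of 29 alternatives, with normexp correction (0.61, adjusted p = 0.915) and with array 1 as the only sh-Control RA array (1.25, adjusted p = 0.0673), and that of Rpe in 15 of 29.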

How the results depend on the processing

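Of 1490 values of the 10 genes under alternatives with a test, 1380 kept their sign and their side of the threshold, 9 lost the call, 28 gained it, and 73 had the other sign with no call in either fit. The 9 lost calls stand in the report beside their genes. The cause of these changes was not tested. Scaling to the median of the array moved the median of all genes to -0.42 for RA in sh-SIRT1 cells, -0.29 for RA in sh-Control cells and 0.13 for the hairpin in vehicle.

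The genes called for the hairpin in vehicle (1576) numbered 314 with normexp, 975 with the slide as a fixed block, 3516 with the replicate block, 2372 with array 1 as the only sh-Control RA array, 2456 without both RA arrays 1, and 739 to 2241 leaving out 1 array. Those for the hairpin under RA (3706) numbered 1173 with normexp and 2030 with array 1 alone, and those for RA in sh-Control cells (8562) 4713 with normexp. Those for the difference of responses (657) numbered 23 with normexp, 285 with no filter, 92 with the slide block, 1656 with the replicate block, 199 with array 1 alone, 2122 without both RA arrays 1, and 204 (without sh-Control vehicle array 3) to 1885 (without sh-Control RA array 1). Of the 10 glycolysis genes, those called for the hairpin in vehicle (0) numbered 2 with the replicate block, 1 with only the groups compared, 1 without both RA arrays 1 and 0 to 1 leaving out 1 array. Those for the hairpin under RA (0) numbered 1 without both RA arrays 1 and 0 to 1 leaving out 1 array. Those for RA in sh-SIRT1 cells (5, where 58.2% of all genes passed) numbered 9 without both RA arrays 1. The share of all genes in that setting is not given here, so the 9 is not read as a result about the 10 genes. The replicate block changed no other call of the 10 genes.

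Uncalled differences that changed sign follow. With normexp, Hk1 for RA in sh-Control cells was -0.066, Pfkl for RA in sh-SIRT1 cells -0.032 and Slc2a3 for the hairpin under RA 0.021. With quantile normalization, Aldoa and Slc2a3 for the hairpin under RA were 0.040 and 0.10, and Ldha and Pgk1 for RA in sh-SIRT1 cells 0.10 and 0.051. With the array median, Eno1 and Hk2 for the difference of responses were -0.12 and -0.0091, Hk1 for RA in sh-Control cells -0.14, Pfkl for RA in sh-SIRT1 cells -0.25 and Slc2a3 for the hairpin under RA 0.0040. With the mean over probes, Hk1 for RA in sh-Control cells was -0.076. With the slide block, the differences of responses of Eno1, Pfkl, Pfkp, Pgk1 and Slc2a3 were -0.017, -0.075, -0.014, -0.14 and -0.15, Ldha and Slc2a1 for the hairpin under RA -0.073 and -0.051, and Pfkl for RA in sh-SIRT1 cells -0.097. With the replicate block, Pfkl, Pgk1 and Slc2a3 for the hairpin under RA were 0.051, 0.026 and 0.14, and Pfkp for RA in sh-SIRT1 cells 0.11. With array 1 as the only sh-Control RA array, the differences of responses of Aldoa, Eno1, Hk2, Ldha, Pfkl, Pfkp, Pgk1 and Slc2a3 were -0.068, -0.0058, -0.18, -0.16, -0.025, -0.11, -0.24 and -0.45, Hk1, Ldha and Slc2a1 for the hairpin under RA -0.21, -0.37 and -0.057, and Pfkl for RA in sh-Control cells 0.059. Without both RA arrays 1, Eno1 for the difference of responses was -0.0083, Hk1 for RA in sh-Control cells -0.095, Pfkl for RA in sh-SIRT1 cells -0.064, and Slc2a1 and Slc2a3 for the hairpin under RA -0.038 and 0.089.

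Leaving out 1 array gave, for the difference of responses, -0.10 to 0.070 for Eno1 and -0.0081 to 0.36 for Pgk1. For RA it gave -0.11 to 0.16 for Hk1 in sh-Control cells and -0.19 to 0.15 for Pfkl in sh-SIRT1 cells. For the hairpin under RA it gave -0.042 to 0.21 for Hk1, -0.055 to 0.14 for Ldha, -0.16 to 0.030 for Pfkl, -0.22 to 0.061 for Pgk1, -0.063 to 0.077 for Slc2a1 and -0.13 to 0.21 for Slc2a3, and -0.099 to 0.17 for the ratio of Slc2a3 over Slc2a1. No ratio comparison passed under any of 132 alternatives. For the hairpin in vehicle and for RA in sh-Control cells none could pass. The smallest exact permutation p there is 0.1 and 0.0571 with all arrays. The scan as a block was not run, since scan and slide coincide. With 3 to 6 arrays a group, small differences could not be told from the spread.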
